A study of Homo sapiens with 10 samples.

Results

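The genes described here are 40 listed genes of glycolysis and of the response to low oxygen, each represented by its brightest probe set. The probe set annotation used here names 39 of them (CA9, a carbonic anhydrase, has no value), out of 19775 named genes, and 38 passed the signal filter used for testing, out of 12022. ENO2, the neuronal enolase, was below that filter, with signals of 2.85 to 27.0. Transcript levels were measured on 10 Affymetrix arrays in SKBR3 cells, an established breast cancer line with amplified HER2 and mutant p53, grown in medium with charcoal-stripped serum, which is low in steroids. Each siRNA, one against LacZ (LacZi, the control) and one against p53 (p53i), was followed by 2 untreated arrays and by 1 array each after 8, 20 and 50 h with 100 nM 1alpha25(OH)2D3 (D3 here), the hormonal form of vitamin D3. The labels call the untreated pairs biological replicates, nothing states separate cultures for the D3 arrays, and so p-values speak of the scatter among these samples alone. The labels give no untreated harvest at 8, 20 or 50 h, and effects of D3 and of hours in culture cannot be told apart. All D3 comparisons share the untreated arrays.

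Glycolysis converts glucose to pyruvate, and lactate dehydrogenase interconverts pyruvate and lactate. HIF1A and EPAS1 are the oxygen-regulated subunits of the hypoxia-inducible factors, which pair with ARNT. With oxygen present the prolyl hydroxylases EGLN1 and EGLN3 mark the HIF alpha subunits for destruction, so that HIF activity is set mainly at the protein level. At low oxygen HIF raises many glycolytic enzymes together with secreted factors such as VEGFA and intracellular proteins such as NDRG1, a stress- and differentiation-responsive protein. Several of these genes also answer to nutrient supply and to endoplasmic reticulum stress.

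HIF binds DNA at sites with the core ACGTG or GCGTG, and the windows of the lactate dehydrogenase pair are shown because LDHB was called with D3 and LDHA was not. Windows of 250 bases just upstream of annotated starts (RefSeq, GRCh38.p14) matched 36 of the 40 genes, with 60 windows. No window was available for NDRG1, which was also called with D3, or for VEGFA, HILPDA and BNIP3L. ACGTG, read on either strand (so also as CACGT), stood in 24 of the 60 windows (40%), which belong to 21 genes, against 18.5% of all 34943 windows of the same length. For GCGTG (or CACGC) the shares were 36.7% and 32.2%. The palindrome CACGTG, which holds ACGTG on both strands, was in 13.3% against 6.32%. These matches describe letters and not binding. The list was made of glycolytic genes and HIF targets, so a higher share of HIF cores can follow from how the genes were chosen. A link between cores and the D3 response was not tested. Below, capitals mark either core read on either strand, merged where matches overlap. The LDHB window (the H subunit, lower with D3) lies on chromosome 12, minus strand, and has none. The first LDHA window (the M subunit, not called with D3) lies on chromosome 11, plus strand, and has 3 such stretches, and a second LDHA window has 1. Both are printed 5′ to 3′ on the gene's strand.
LDHB, chr12:21657843-21658092: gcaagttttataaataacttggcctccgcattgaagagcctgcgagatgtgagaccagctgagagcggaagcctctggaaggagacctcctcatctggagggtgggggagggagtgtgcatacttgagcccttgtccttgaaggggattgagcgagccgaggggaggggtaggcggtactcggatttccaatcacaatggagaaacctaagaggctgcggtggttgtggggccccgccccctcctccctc
LDHA, chr11:18394313-18394562: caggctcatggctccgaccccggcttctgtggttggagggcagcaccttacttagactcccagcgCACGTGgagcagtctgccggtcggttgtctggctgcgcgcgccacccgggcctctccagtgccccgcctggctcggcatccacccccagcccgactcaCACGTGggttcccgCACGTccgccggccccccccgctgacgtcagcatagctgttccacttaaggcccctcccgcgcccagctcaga

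Among these genes D3 lowered NDRG1 and LDHB and raised none past the threshold. NDRG1 fell by 0.71 ± 0.13 (SE) on the log2(signal + 16) scale over the 3 times, which is 1.64-fold, and LDHB fell by 0.32 ± 0.07, which is 1.25-fold. The other 36 genes tested, among them every upper-glycolysis enzyme, HIF1A and VEGFA, did not pass. In the additive limma fit of siRNA and D3 time, 2 of 38 genes (5.26%) were called, both lower, where 4.40% of all genes were called, 1.99% higher and 2.41% lower. At an unadjusted p under 0.05 there were 7 of 38 (18.4%), against 19.4% of all genes. The median D3 effect was -0.04, with 25 of 38 below 0 and 13 above. Over all genes the median was -0.0048, with 49.0% above 0. Without p53i untreated replicate 2 the call also included PGAM1, PFKM (-0.48) and HILPDA (-0.44). With each array centred on its median, the median over all genes moved to -0.10 and that of the 38 to -0.13.

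**Figure D1:**
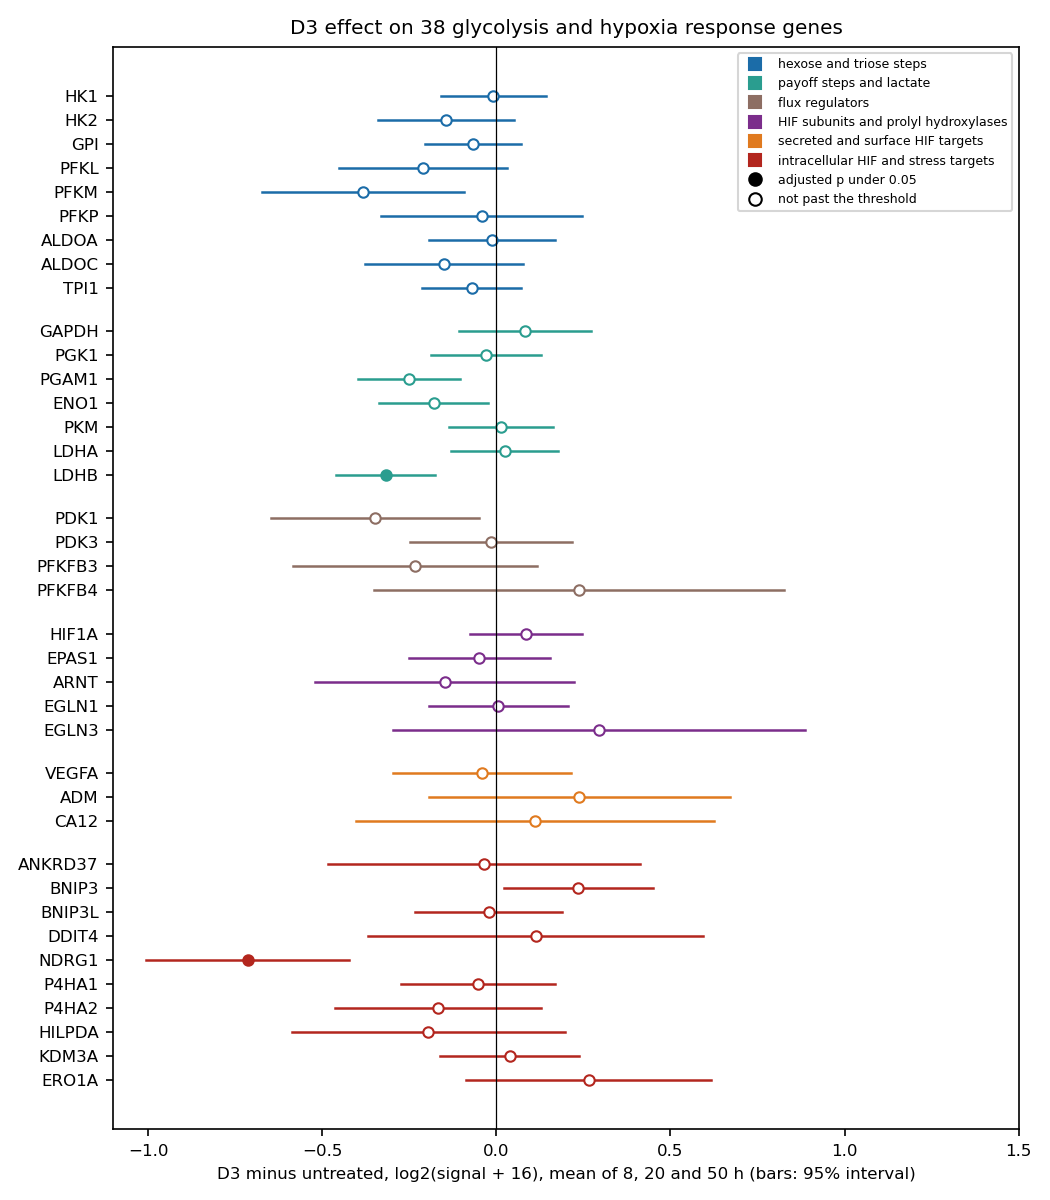
D3 effect on each of 38 genes, as the mean of 8, 20 and 50 h minus untreated on the log2(signal + 16) scale (x axis), with 95% intervals from the limma fit and colours for the role of each gene. NDRG1 at -0.71 and LDHB at -0.32 are the filled points, past an adjusted p of 0.05, and the other 36 are open.

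In the upper steps of the pathway, from hexokinase to triose phosphate isomerase, 0 of 9 genes were called at the mean D3 effect, and 1 had an unadjusted limma p under 0.05. The 9 estimates lay below 0, between -0.38 and -0.01, with a median of -0.07, where 49.0% of all genes were above 0. They come from the same arrays and are not independent. HK2, the hexokinase induced in many tumours, had signals of 1246 and 1096 on the untreated LacZi arrays and 1349, 1120 and 1031 after 8, 20 and 50 h with D3. The p53i arrays read 1536 and 1356 untreated and 1360, 1045 and 1175 with D3. The treated and untreated LacZi arrays overlapped, and the p53i arrays overlapped at 8 h only. HK2 differed by -0.15 with D3 (95% interval -0.34 to 0.05, limma adjusted p = 0.418). PFKM, the muscle-type phosphofructokinase, had the lowest estimate of the 9, -0.38 ± 0.13 (limma adjusted p = 0.131), and was named after its values were seen, as were further genes outside the naming rule (among them PGAM1, PGK1, ALDOC, PDK1, BNIP3, PKM, DDIT4, CA12, GAPDH, ALDOA, ENO1, PFKFB3, PFKFB4, TPI1, PDK3 and P4HA1).

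In the lower steps of the pathway, from GAPDH to lactate dehydrogenase, 1 of 7 genes tested was called, and 3 had an unadjusted p under 0.05. LDHB makes the H subunit of lactate dehydrogenase, which favours the conversion of lactate to pyruvate. Its signals were 9176 and 8334 on the untreated LacZi arrays and 7259, 6896 and 5771 after 8, 20 and 50 h. In p53i cells they were 7650 and 7804 untreated and 6986, 6843 and 5942 with D3. All 6 D3 arrays lay below all 4 untreated arrays, and in each siRNA the signal was lowest at 50 h. The same separation held for PGAM1, and in that direction for 2.47% of all genes.

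The LDHB effect was -0.21 after 8 h, -0.26 after 20 h and -0.49 ± 0.09 after 50 h, with limma adjusted p of 0.638, 0.204 and 0.0112. The mean effect had a 95% interval of -0.46 to -0.18 and a limma adjusted p of 0.0211. Its size ranged from -0.41 to -0.27 over 22 alternative settings, and it was called in 13 of them, with adjusted p of 0.00829 to 0.132. The call was lost without LacZi untreated replicate 1 (-0.27) and without any one of the LacZi arrays at 8, 20 or 50 h or the p53i arrays at 8 or 20 h (-0.33 to -0.29). At 50 h the call was lost without either 50 h array, with -0.41 without the LacZi one and -0.56 without the p53i one. The fainter LDHB probe set gave -0.25 for the mean and -0.42 at 50 h, and both LDHB probe sets are of the x_at kind, whose probes can also match other transcripts.

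LDHA, the M subunit and a long-known HIF target, stood at 16149 and 17850 untreated and 16006, 15122 and 16298 with D3 in LacZi cells. In p53i cells it stood at 16802 and 16161 untreated and 18120, 16694 and 20313 with D3. The p53i 50 h array held the highest of these 10 values. Its mean D3 effect was 0.02 (95% interval -0.13 to 0.18, limma adjusted p = 0.897), and -0.07 to 0.08 over the alternatives, with 4 of 22 below 0.

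PGAM1, the phosphoglycerate mutase between PGK1 and enolase, had 3175 and 3071 untreated and 2874, 2620 and 2545 with D3 in LacZi cells. The p53i arrays had 3249 and 2906 untreated and 2592, 2433 and 2559 with D3. Its D3 effect of -0.25 ± 0.07 did not pass (limma adjusted p = 0.0592), and 5 of 22 alternatives put it past the threshold (0.0268 to 0.239). One of those left out p53i untreated replicate 2 (-0.27). The remaining genes of these steps, GAPDH, PGK1, ENO1 and PKM, had estimates between -0.18 and 0.08.

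**Figure D2:**
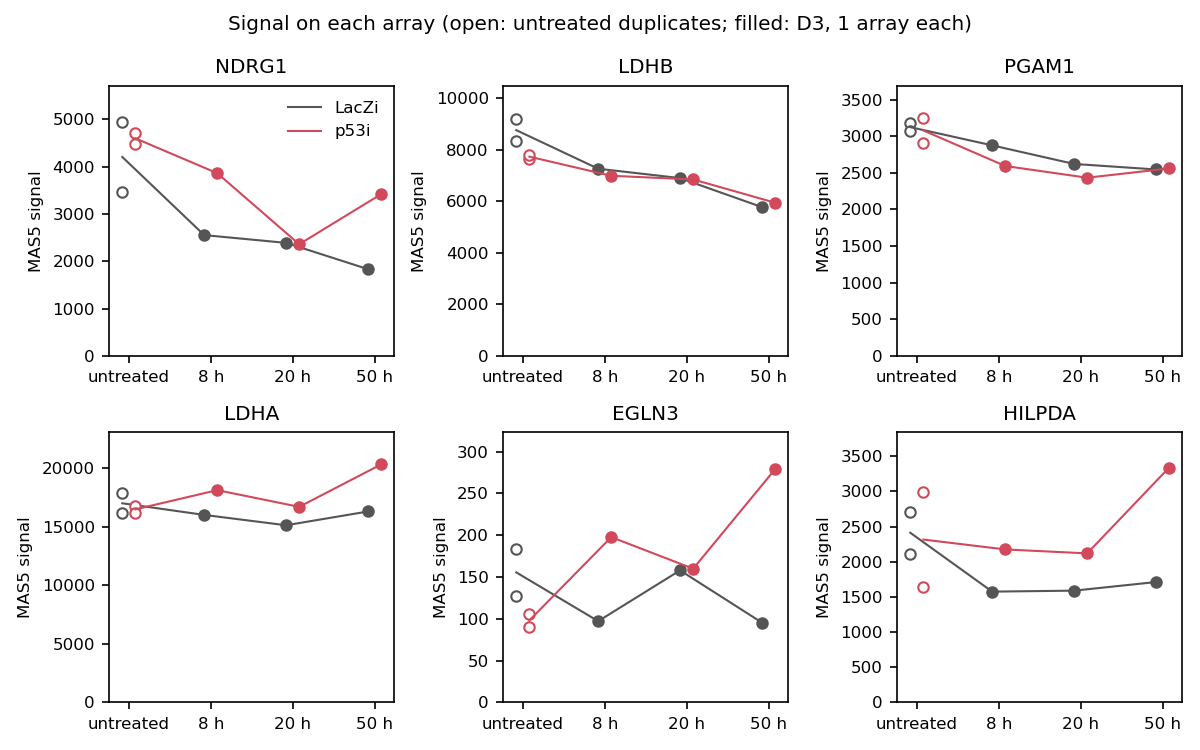
MAS5 signal (y axis, linear from 0) on each of the 10 arrays against treatment (x axis) for NDRG1, LDHB, PGAM1, LDHA, EGLN3 and HILPDA. Lines join the mean of the untreated duplicates (open points) to the single D3 arrays (filled points). NDRG1 stood at 1833 at 50 h in LacZi cells and at 3416 in p53i cells, and EGLN3 stood at 95.5 and 279.

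None of the 4 genes that steer flux passed, which are the kinases PDK1 and PDK3, which hold back pyruvate dehydrogenase, and PFKFB3 and PFKFB4, which make the activator of phosphofructokinase. PDK1 had signals of 434 and 283 untreated and 333, 263 and 211 with D3 in LacZi cells. On the p53i arrays PDK1 had 368 and 303 untreated and 402, 214 and 217 with D3. At 50 h both D3 arrays lay below their untreated duplicates, and the effect there was -0.64 ± 0.18 (limma adjusted p = 0.0730). It passed in 4 of 22 alternatives, of which one left out LacZi untreated replicate 2 (-0.74) and one p53i untreated replicate 2 (-0.70). The fainter PDK1 probe set past the filter went the other way, with 0.39 at 50 h and 0.27 for the mean D3 effect, where the brightest gave -0.35.

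HIF subunits and prolyl hydroxylases gave 0 of 5 calls with D3, and 0 at an unadjusted limma p under 0.05. HIF1A stood at 2812 and 2744 untreated and 3262, 3218 and 3273 with D3 in LacZi cells. The p53i values were 2837 and 2949 untreated and 2765, 2818 and 2762 with D3. The D3 arrays lay above both untreated arrays in LacZi cells, and in p53i cells all 3 lay below both. The mean D3 effect on HIF1A was 0.08 (95% interval -0.08 to 0.25, limma adjusted p = 0.591), and -0.0058 with each array centred on its median.

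Of the secreted and surface products of HIF targets, 0 of 3 genes tested were called with D3, and 0 had an unadjusted limma p under 0.05. VEGFA, the angiogenic growth factor, had 2011 and 1387 untreated and 1708, 1517 and 1256 with D3 in LacZi cells. With p53i siRNA VEGFA had 1795 and 1365 untreated and 1869, 1580 and 1562 with D3. The untreated duplicates spanned most of the D3 values in both siRNAs. Its mean D3 effect was -0.04 (95% interval -0.30 to 0.21, limma adjusted p = 0.895), and -0.15 to 0.09 over the alternatives, with 3 of 22 above 0.

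Of the 10 intracellular HIF and stress targets, NDRG1 was called and 2 had an unadjusted p under 0.05. The other was BNIP3, a mitochondrial receptor for mitophagy, with a D3 effect of 0.24 ± 0.10 (limma adjusted p = 0.211). Its fainter probe set gave -0.0036. The 10 estimates ran from -0.71 to 0.27, with 6 below 0. Over all 38 genes, 5 (PFKM, PGAM1, ENO1, LDHB and NDRG1) were below the untreated mean on 6 of 6 D3 arrays (13.2%, where 12.9% of all genes were). None was above it on all 6, where 10.6% of all genes were.

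NDRG1 was measured by 1 probe set. In LacZi cells its signal was 4936 and 3470 untreated and 2552, 2388 and 1833 after 8, 20 and 50 h with D3. The p53i signals were 4477 and 4715 untreated and 3859, 2359 and 3416. Within each siRNA all D3 arrays lay below both untreated arrays, and the LacZi duplicates differed by 1.42-fold. Such a separation in both siRNAs was found for 3 of 38 genes (7.89%, with LDHB and PGAM1), and for 5.20% of all genes.

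With both siRNAs in the fit, NDRG1 had a log2 D3 effect of -0.47 ± 0.18 after 8 h, -0.87 ± 0.18 after 20 h and -0.80 ± 0.18 after 50 h. The limma adjusted p was 0.584, 0.0587 and 0.0302. The share of all genes called at these times was 0.175%, 0.591% and 4.31% (at 50 h 1.83% higher and 2.48% lower). At 8 and 20 h 0 of the 38 genes were called by limma, with 2 and 6 at an unadjusted p under 0.05, and at 50 h 2 were called, NDRG1 and LDHB. The 20 h value passed the threshold in 5 of 22 alternatives, with adjusted p of 0.0255 to 0.585. Of these, 3 left out 1 array, which was LacZi 50 h or p53i 50 h (both -0.87) or p53i untreated replicate 2 (-0.90).

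NDRG1's change between times was not resolved. The effect at 20 h minus that at 8 h was -0.40 ± 0.21 (95% interval -0.85 to 0.05), and that at 50 h minus that at 20 h was 0.08 ± 0.21 (-0.38 to 0.53). The effect at 50 h minus that at 8 h was -0.32 (-0.78 to 0.13, limma adjusted p = 0.674), and 0.01 without the LacZi 50 h array. Of all genes 0.133% were called in this last comparison, and 0 of the 38 by limma, with 2 at an unadjusted p under 0.05.

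The mean effect on NDRG1 had a 95% interval of -1.01 to -0.42 and a limma adjusted p of 0.0149, and it was called in 19 of 22 alternatives (-0.83 to -0.58, adjusted p of 0.00599 to 0.0871). Without LacZi untreated replicate 1 it was -0.58 and without p53i 20 h -0.64, neither past the threshold (0.0533 and 0.0553). The 50 h value was called in 16 of 22 alternatives. It was lost without LacZi untreated replicate 1 (-0.66), LacZi 50 h (-0.46) or p53i 50 h (-1.13), with adjusted p of 0.0130 to 0.298 over the alternatives.

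In LacZi cells NDRG1 stood lower at each later time, with differences from untreated of -0.69, -0.79 and -1.17. In p53i cells the differences were -0.25, -0.96 and -0.43, so the lowest array was that at 20 h. Each of these rests on 1 D3 array, and none passed (limma adjusted p of 0.167 to 1.00). The mean of the 3 times was -0.88 ± 0.18 in LacZi and -0.54 ± 0.18 in p53i cells, with limma adjusted p of 0.0877 and 0.189.

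The 5 genes whose log2 signal ran most like that of NDRG1 over the 10 arrays were SGCB, NONO, CHST15, LITAF and CD320, with Pearson r of 0.94, 0.94, 0.92, 0.92 and 0.92. The 10 arrays share treatments and scaling, so this is a description. They were picked for likeness to NDRG1, which fell with D3, so a fall in them is partly built in and is not tested here. With D3 the differences were -0.75 for LITAF, -0.77 for CHST15, -0.40 for CD320, -0.32 for SGCB and -0.17 for NONO. Of the listed genes ALDOC (0.77) and PDK1 (0.71) ran most like NDRG1, and HIF1A gave -0.66.

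The difference in D3 response between p53i and LacZi cells was not called for any of the 38 genes, nor for any of the 12022, over the 3 times or at 8, 20 or 50 h (0% called, limma adjusted p of at least 0.893 for the 38). Of 47 further probe sets past the filter, from 22 of these genes, 25 had the sign of the brightest one for the difference over the 3 times, 31 for the mean D3 effect and 34 for the siRNA difference over all conditions. Over the 3 times 4 of 38 (10.5%) had an unadjusted p under 0.05, against 645 of all genes (5.37%). At 8 h it was 1 of 38, against 2.66% of all genes, at 20 h 0 against 1.90%, and at 50 h 4 (10.5%) against 3.91%.

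EGLN3, the prolyl hydroxylase that is itself strongly induced by HIF, had the largest estimate. Its signals were 183 and 128 untreated and 97.2, 158 and 95.5 with D3 in LacZi cells. In p53i cells they were 90.6 and 106 untreated and 198, 160 and 279 with D3. The p53i D3 arrays all lay above the p53i untreated arrays, whereas LacZi D3 arrays lay below or between the LacZi duplicates. The difference in response was 1.35 ± 0.40 (95% interval 0.47 to 2.23, unadjusted p = 0.00603, limma adjusted p = 0.893), as -0.38 in LacZi and 0.97 in p53i cells.

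By time the EGLN3 difference was 1.49 after 8 h, 0.59 after 20 h and 1.98 after 50 h. It kept its sign in the 21 alternatives that gave a value for the mean (1.03 to 1.83, adjusted p of 0.282 to 0.999). The fainter EGLN3 probe set gave 1.10. The untreated difference, p53i minus LacZi, of -0.57 ± 0.26 enters each of these (limma adjusted p = 0.454).

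HILPDA, a lipid droplet protein induced by hypoxia, had signals of 2708 and 2116 untreated and 1575, 1589 and 1711 with D3 in LacZi cells. The p53i arrays gave 2990 and 1641 untreated and 2175, 2119 and 3338 with D3. The LacZi D3 arrays lay below both duplicates, and the p53i duplicates spanned 2 of the 3 p53i D3 arrays. Its difference in response was 0.72 ± 0.31 (95% interval 0.04 to 1.40, limma adjusted p = 0.893), from 0.29 to 1.15 over the alternatives, and its other probe set gave 0.20.

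ERO1A, the endoplasmic reticulum oxidase, had 666 and 595 untreated and 537, 675 and 641 with D3 in LacZi cells. With p53i siRNA ERO1A had 671 and 375 untreated and 657, 733 and 874 with D3. Its difference was 0.60 ± 0.29 (limma adjusted p = 0.893). The other ERO1A probe sets past the filter gave -0.11 and -0.19. Over the alternatives the value ran from 0.10 to 1.00, and the lower p53i duplicate was the lowest of the 10 arrays.

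PFKL and HIF1A had estimates of the opposite sign. PFKL, the liver-type phosphofructokinase, had 615 and 575 untreated and 621, 568 and 646 with D3 in LacZi cells. In p53i cells it had 871 and 904 untreated and 671, 658 and 594 with D3, so the p53i untreated pair stood above the other 8 arrays. The difference was -0.50 ± 0.17 (95% interval -0.88 to -0.12, limma adjusted p = 0.893), and another PFKL probe set gave 0.06. For HIF1A, described above, it was -0.28 ± 0.13 (limma adjusted p = 0.893), with D3 effects of 0.23 in LacZi and -0.06 in p53i cells.

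NDRG1's difference in response was 0.34 ± 0.26 over the 3 times (95% interval -0.23 to 0.91), and 0.44 after 8 h, -0.17 after 20 h and 0.74 after 50 h. The intervals at these times were -0.26 to 1.15, -0.87 to 0.54 and 0.04 to 1.45. The interval over the 3 times holds 0 and also values as large as the D3 effect itself. For LDHB the mean difference was 0.17 (-0.11 to 0.45), for LDHA 0.26 (-0.02 to 0.53), for VEGFA 0.26 (-0.25 to 0.77) and for HK2 -0.27 (-0.64 to 0.10). The HK2 value was 0.26 as the mean of all its probe sets, and the VEGFA value was -0.0067 without LacZi untreated replicate 1.

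Of the 38 estimates of this difference, 25 were above 0 at 8 h, 14 at 20 h and 30 at 50 h, where 44.7%, 47.9% and 47.2% of all genes were. The medians of the 38 were 0.13, -0.10 and 0.16, and those of all genes -0.04, -0.02 and -0.02. Each time compares 1 array per siRNA and shares the untreated arrays, and that 1 array enters every gene's value at that time. With each array centred on its median the count at 50 h was 18 of 38 and the median -0.04, where all genes had a median of -0.22. With quantile normalization the count stayed at 30 of 38, with a median of 0.14.

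**Figure D3:**
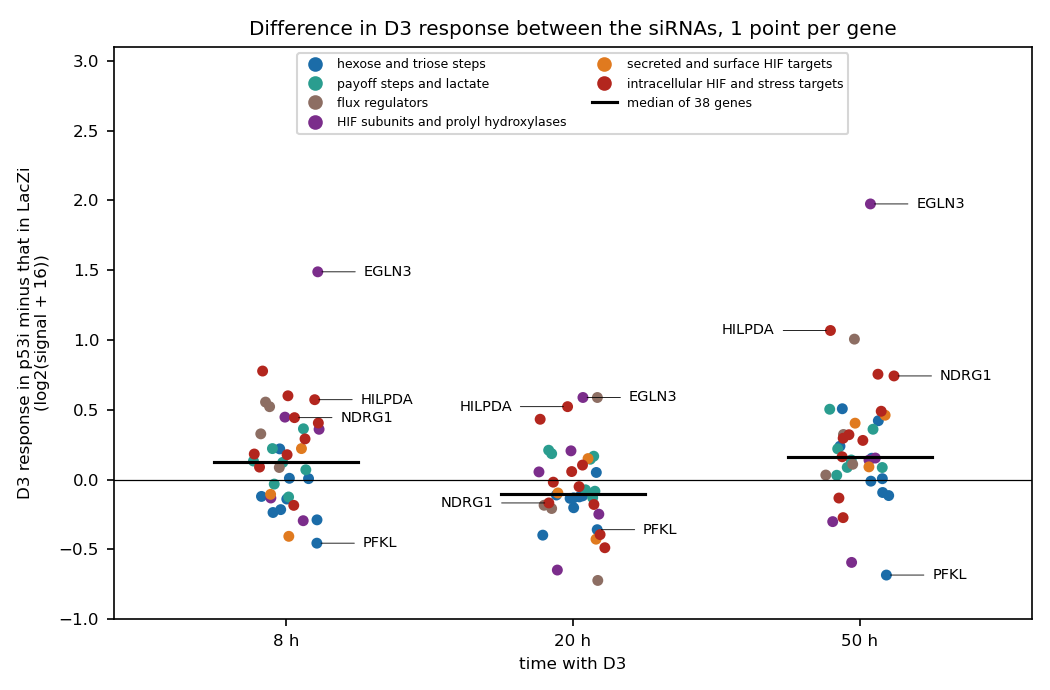
Difference in D3 response, p53i minus LacZi (y axis, log2(signal + 16)), at 8, 20 and 50 h (x axis), with 1 point per gene for 38 genes and a bar at their median (0.13, -0.10 and 0.16). EGLN3 stood highest at 8 h (1.49) and at 50 h (1.98), and 30 of 38 points were above 0 at 50 h.

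Within each siRNA, 0 of 38 genes were called for D3 by limma. In LacZi cells 6 had an unadjusted p under 0.05 (15.8%, against 11.9% of all genes, where 0.391% were called). In p53i cells it was 9 (23.7%, against 15.1%, where 0.541% were called). In LacZi cells 29 of 38 estimates were below 0 and 9 above, where 49.9% of all genes were above 0. In p53i cells 18 were below 0 and 20 above, where 46.4% of all genes were above. With each array centred on its median, 31 were below 0 in LacZi and 30 in p53i cells. Of all genes, 45.2% and 26.0% were then above 0, so most genes moved down in p53i cells with centring. GAPDH and LDHA were below the untreated mean on 3 of 3 LacZi arrays and above it on 3 of 3 p53i arrays (5.26%, against 3.42% of all genes), and HIF1A showed the reverse (2.63%, against 4.51%). Leaving out p53i untreated replicate 1 or 2 put NDRG1 in LacZi cells past the threshold (-0.88, adjusted p of 0.0271 to 0.511 over the alternatives). The ERO1A effect in p53i cells was 0.56 with all arrays and 0.97 without p53i untreated replicate 1. That fit keeps replicate 2 as the only untreated p53i array. It had the lowest ERO1A signal (375) and the highest ACTB ratio (8.72, given below).

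The siRNA against p53 gave no call among the 38 genes over all conditions, where 6.50% of all genes were called by limma. At an unadjusted p under 0.05 there were 11 (28.9%, against 22.9% of all genes). The median was 0.09, with 25 of 38 above 0, and over all genes it was -0.0049, with 49.1% above 0. PKM, the muscle-type pyruvate kinase gene, was the only one with all 5 p53i arrays above all 5 LacZi arrays, as 3.09% of all genes were. Its signals were 2989 to 3255 in LacZi cells, with a median of 3140, and 3296 to 3975 in p53i cells, with a median of 3607. Its difference was 0.21 ± 0.07 (limma adjusted p = 0.0893).

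In 4 of 4 comparisons matched on D3 time, 7 genes were higher in p53i cells, namely ALDOA, GAPDH, PKM, PDK3, CA12, BNIP3 and P4HA1, and 15.9% of all genes were. GAPDH was read from its 3′ control probe set, which differed by 0.19 over all conditions. The middle GAPDH control probe set gave 0.20 and the 5′ one 0.08. The GAPDH 3′ over 5′ signal was highest, 1.42, on p53i untreated replicate 2, and its part in the GAPDH difference was not tested. In 0 of 4 were TPI1 and DDIT4 higher, and 16.6% of all genes stood below in every match. DDIT4, a stress-induced inhibitor of mTORC1, had the lowest estimate, -0.61 (limma adjusted p = 0.115), and PFKFB4 the highest, 0.78. NDRG1 was higher by 0.35 ± 0.13 (limma adjusted p = 0.128). Without p53i untreated replicate 1 DDIT4 (-0.80) and BNIP3 (0.29) passed the threshold, and without replicate 2 P4HA1 (0.34) and HILPDA (0.52) did. Without replicate 1 the only untreated p53i array is replicate 2, the highest in ACTB ratio (8.72, given below). With all arrays BNIP3 differed by 0.21, and its fainter probe set by -0.12.

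**Figure D4:**
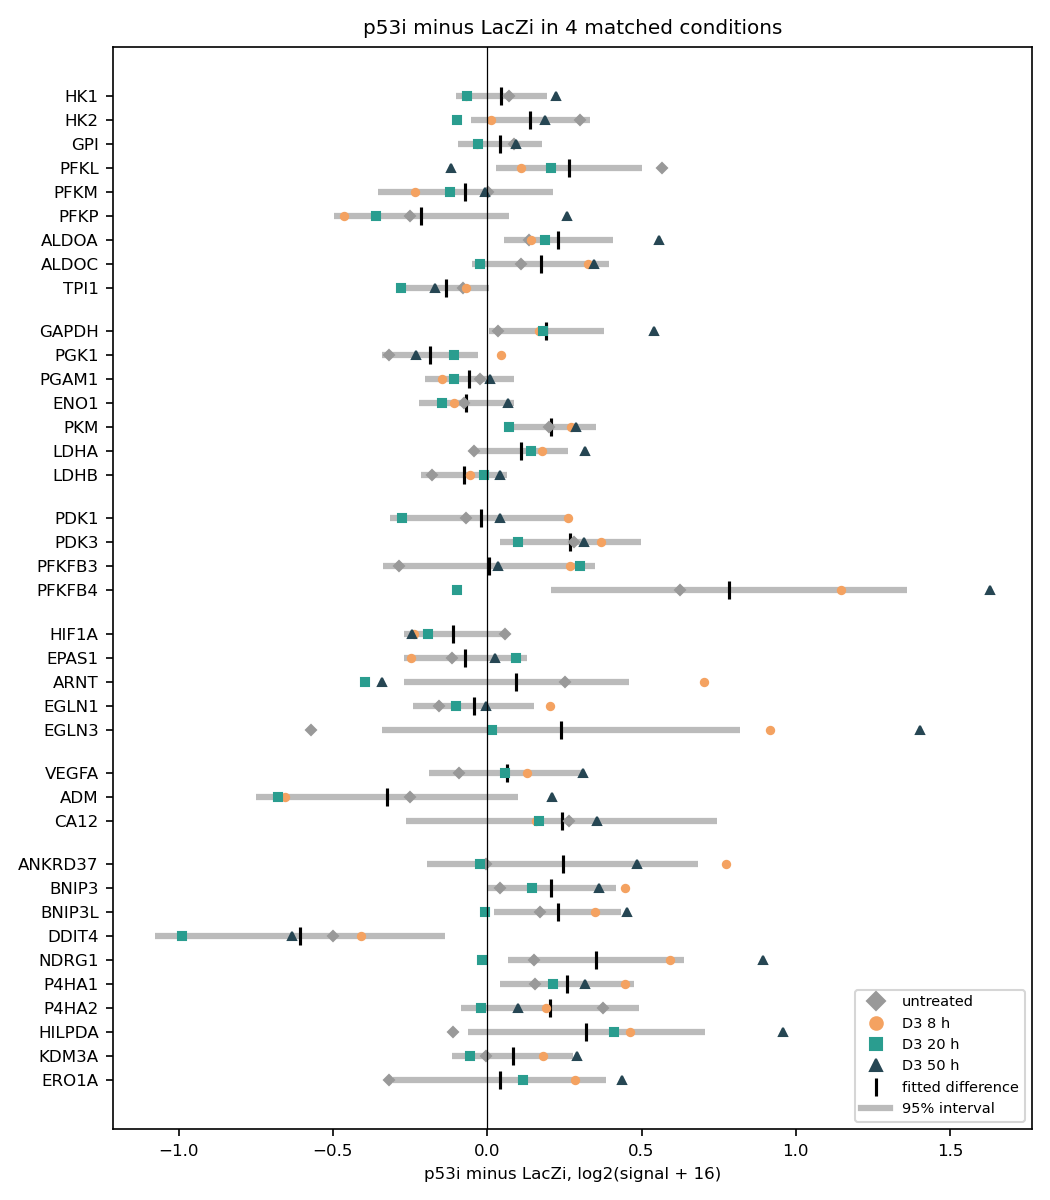
p53i minus LacZi on the log2(signal + 16) scale (x axis) for 38 genes, in the untreated cells (means of duplicates) and at each D3 time (single arrays), with the fitted difference over all conditions and its 95% interval. PKM lay at 0.21, DDIT4 at -0.61 and PFKFB4 at 0.78, and none passed the threshold.

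In untreated cells alone 0 of 38 genes were called by limma, where 0.00832% of all genes were, and 2 had an unadjusted p under 0.05. The median was -5.43e-05, with 19 above and 19 below 0. PFKL, at 871 and 904 in p53i cells and 615 and 575 in LacZi cells, had a difference of 0.57 (limma adjusted p = 0.334). NDRG1 differed by 0.15 ± 0.18, which was -0.10 without LacZi untreated replicate 2. HIF1A, LDHA and HK2 did not pass either.

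Several HIF and stress targets varied widely between the duplicates of the untreated cells. CA12, a surface carbonic anhydrase, read 1426 and 611 in LacZi and 1729 and 731 in p53i cells. DDIT4 read 3801 and 1859 in LacZi and 2815 and 1248 in p53i cells. Both differed over 2-fold within each siRNA, and in both siRNAs their D3 arrays lay between the duplicates. Beyond 0.5 on the log2 scale, 9 of 38 genes differed in LacZi and 9 in p53i cells, against 1677 and 2474 of all 12022 genes. The median absolute difference of the 38 was 0.25 in LacZi and 0.21 in p53i cells. Over all genes it was 0.19 and 0.25, so by this median the 38 varied more than all genes in LacZi cells and not in p53i cells. The counts beyond 0.5 were a larger share of the 38 than of all genes in both siRNAs. The genes with replicate 1 higher by more than that in both siRNAs were PFKM, PFKFB3, CA12 and DDIT4 (10.5%, against 2.01% of all genes). The labels do not say what the replicates differed in, and the part of culture conditions in these values was not tested.

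The pathway around the listed genes was described from 7 further lists. HIF pathway regulators gave 0 calls of 7 tested genes, further glucose uptake and glycolytic genes 0 of 11, and the other NDRG family members 0 of 3, for D3 and siRNA alike. At an unadjusted limma p under 0.05 for the mean D3 effect these lists held 1, 5 and 0 genes, against 19.4% of all genes. The count was 10 of 27 for further HIF targets and 5 of 12 for the ATF4 and unfolded protein response. It was 4 of 12 for pyruvate entry and 2 of 13 for the citric acid cycle. Further HIF targets had a median D3 effect of 0.18. At 50 h their median was 0.28, with 14 of 27 under 0.05, against 19.9% of all genes. Among 27 further HIF targets D3 raised 2, the secreted glycoprotein STC1 and IGFBP3, which binds insulin-like growth factors, and lowered none, where 4.40% of all genes were called and 1.99% were higher. STC1 had signals of 120 and 121 untreated and 151, 293 and 178 with D3 in LacZi cells, and 80.4 and 43.5 untreated and 128, 133 and 293 in p53i cells. Its D3 effect was 0.98 ± 0.24 (limma adjusted p = 0.0401) and that of IGFBP3 0.82 ± 0.21 (0.0447). Both calls held in only 1 of the 10 fits that left out an array, for STC1 that without LacZi 50 h and for IGFBP3 that without p53i 50 h, with ranges of 0.75 to 1.22 and 0.68 to 0.97. Of 11 other settings, 4 ended the STC1 call and 6 that of IGFBP3. Quantile normalization and centring on the array median were among the latter (both 0.73). IGFBP3 signals were 38.8 and 35.5 in untreated p53i cells, near the filter of 35.4, and at most 172.

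At 50 h (4.31% of all genes called, 1.83% higher) 2 of the 27 were called. WSB1, a substrate receptor of a ubiquitin ligase, rose by 0.59 and STC1 by 1.27. Both calls also held in only 1 of 10 fits that left out an array (without p53i untreated replicate 1 and LacZi 50 h), with STC1 between 0.56 and 1.97. The WSB1 call was lost in 7 of 12 other settings and the STC1 call in 6 of 11. With p53i siRNA, where 6.50% of all genes were called, 1 of the 27 was. ERRFI1, a feedback inhibitor of EGFR family receptors, was lower by a log2 difference of -0.62. That call was lost without any one of the 8 h or 20 h arrays (-0.72 to -0.51 over the 10 fits). Of 12 genes of the ATF4 and unfolded protein response, ATF3 rose by 0.59 at 50 h with D3, and the call was lost without either 50 h array (0.52 to 0.64). XBP1 and DNAJB9 were higher in p53i cells by 0.34 and 0.29 on the brightest probe set. As the mean of all probe sets of the gene, the differences were -0.02 and 0.04, and neither passed. The XBP1 call was lost without any one of the 20 h or 50 h arrays and the DNAJB9 call in 9 of 10 such fits (kept without p53i untreated replicate 2). With the ACTB ratio, given below, as a covariate, the calls of ERRFI1, XBP1 and DNAJB9 were lost.

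As a check of the treatment, CYP24A1, the D3 24-hydroxylase and the standard target of the vitamin D receptor, stood at 23.7 to 40.02 untreated and at 4234 to 6476 with D3. The receptor VDR itself differed by -0.32 with D3 (limma adjusted p = 0.0874). Knockdown by the p53 siRNA was not analysed here. Of the 10 luminal and HER2 markers 9 passed the filter, with a median signal of 9117, and the markers of 5 other cell types had medians of 10.2 to 37.7. KRT5 was called higher with D3, and KRT7, KRT8, GRB7 and GATA3 were called with siRNA. The signal of the 3′ over that of the 5′ ACTB control probe set, called the ACTB ratio here, which rises as RNA shortens, was 3.79 to 5.05 on the LacZi arrays and 4.39 to 8.72 on the p53i arrays, highest on p53i untreated replicate 2 and p53i 20 h. Without those 2 arrays NDRG1 was still called for the mean D3 effect and LDHB was not (-0.34). The ratio enters the D3 comparisons as well as the siRNA comparisons as a covariate in the alternatives.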

How the data were processed

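Transcripts were measured in 10 samples of SKBR3 cells, 6 ug of RNA each, per the labels. For the start of D3 the series text gives 48 h after transfection, the sample text 24 h. The deposited values are MAS5 signals (linear intensities), as the submitters' processing notes give, and their version and detection calls were not used here. The 2% trimmed mean of every array was 200, so the authors' scaling was kept. Low signals lie near background, so folds of faint genes are uncertain.

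Of 54675 probe sets, 41097 carried 1 gene symbol in the platform annotation, 1801 several and 11777 none. Signals were converted to log2(signal + 16), which understates changes of faint genes. Each gene took its brightest probe set, and the upper 50% of probe sets (signal above 35.4) were kept. limma 3.58.1 in R 4.3.3 (lmFit, eBayes with trend, two-sided) was fitted to all genes, with Benjamini-Hochberg adjustment and a threshold of 0.05. D3 and siRNA effects came from an additive model (5 residual degrees of freedom), the D3 effect per siRNA and its difference from a siRNA-by-D3 model (4), and single times per siRNA, and untreated cells, from 8 group means (2), where a lone array is taken to scatter as the duplicates do. The code was tested on simulated data. The number of arrays limits the precision.

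The genes and lists were chosen with earlier results of these data known. Named with values are genes called in a comparison, the 5 with the smallest unadjusted p for the mean difference in response, and always NDRG1, VEGFA, HIF1A, LDHA, HK2 and CA9. The report lists genes named after their values were seen. Alternatives covered 2 further normalizations, offsets of 0 and 64, no filter and the upper 25%, probe set means, no trend, the replicate number as a block, group means, the ACTB ratio, and each array left out.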

Additional observations from a re-analysis of the deposited data

How the results depend on the processing

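Over 22 alternative settings the mean D3 effect on NDRG1, LDHB, PGAM1, PDK1 and PFKM kept its direction. Of the 38 genes, 2 were called for the mean D3 effect, and the count was 4 with each array centred on its median, 1 with group means and 1 when the pair of arrays highest in ACTB ratio was left out. Without the intensity trend it was 0 for the mean effect and 0 at 50 h. At 20 h (0 called) it was 1 with each array centred. At 50 h (2 called) it was 1 without a filter and 0 with group means. For p53i minus LacZi over all conditions (0 called) it was 1 with quantile normalization and 1 with centring, both ALDOA. For D3 in LacZi cells (0 called) it was 1 without that pair. Leaving out 1 array gave 0 to 5 for the mean D3 effect, 0 to 1 at 20 h, 0 to 3 at 50 h, 0 to 2 for siRNA over all conditions, and 0 to 1 for D3 in LacZi and in p53i cells. The difference in D3 response was called for 0 genes of the 38 wherever it could be fitted. NDRG1 changed sign when 1 array was left out for the effect at 50 h minus 8 h (-0.66 to 0.012 over these fits, highest without LacZi 50 h), for the untreated siRNA difference (-0.10 to 0.40, lowest without LacZi untreated replicate 2) and for the difference in response at 20 h (-0.42 to 0.086, highest without that array). Mean D3 effects that were near 0 and not called also changed sign. HIF1A was -0.0058 with centring, LDHA was -0.066 with centring and -0.016 without the high-ratio pair, and leaving out 1 array gave -0.019 to 0.082 for LDHA and -0.15 to 0.091 for VEGFA. The difference in response was 0.26 for HK2 as a mean of probe sets and -0.0067 to 0.52 for VEGFA when 1 array was left out. Where no cause is shown by how a setting is built, the cause was not tested. Differences in response at a single time could not be fitted without either D3 array of that time and have no value there. EGLN3 was not among the upper 25% of probe sets.

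The untreated replicates share numbers between the siRNAs, in 2 pairs only, and nothing in the labels says that a number marks a shared culture. Their differences (replicate 1 minus 2) correlated across all genes with r = 0.22 and across the 38 with r = 0.54, where genes are not independent. With the replicate number as a block the calls were 4 for the mean D3 effect, 1 at 20 h, 4 at 50 h, 3 for siRNA over all conditions, 2 in untreated cells, 2 for D3 in LacZi and 1 in p53i cells.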

Other observations

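Pyruvate leaves glycolysis for the mitochondria, where pyruvate dehydrogenase and the citric acid cycle oxidise it, and genes of these steps were tested in the same fits. Of 13 citric acid cycle genes tested, D3 lowered MDH2, the mitochondrial malate dehydrogenase, and SUCLG1, a succinyl-CoA ligase subunit, and raised none past the threshold. Of all genes 4.40% were called for the mean D3 effect and 2.41% were lower, and at 50 h 4.31% were called. MDH2 had signals of 9960 and 10973 untreated and 9534, 9020 and 8004 with D3 in LacZi cells, and 10162 and 10985 untreated and 8420, 7838 and 7400 in p53i cells. All 6 D3 arrays lay below all 4 untreated arrays, as they did for 2.47% of all genes. MDH2 fell by 0.33 ± 0.07 (limma adjusted p = 0.0185) and by 0.45 at 50 h, and SUCLG1 fell by 0.27 and by 0.47 at 50 h. At 50 h both calls were lost without either 50 h array. The mean effects were lost without LacZi 20 h or any one p53i D3 array for MDH2 (-0.38 to -0.29 over the 10 fits), and in 9 of 10 such fits for SUCLG1, which kept the call without p53i untreated replicate 2. Of 12 other settings, 4 ended the mean call for MDH2 and 6 that for SUCLG1. One of these, the mean of all probe sets, gave -0.18 for MDH2 and -0.09 for SUCLG1.

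With p53i siRNA 3 of these 13 genes were lower and 1 higher, where 6.50% of all genes were called. CS, citrate synthase, which starts the cycle, read 2462 to 2922 in LacZi cells and 1933 to 2251 in p53i cells. It differed by -0.42 ± 0.07 (limma adjusted p = 0.00743), and the call held in 10 of 10 fits that left out an array (-0.45 to -0.38). It was lost in 4 of 12 other settings, which were no intensity trend (-0.42), group means (-0.41), the ACTB ratio in the fit (-0.38) and the 2 arrays highest in that ratio left out (-0.38), with adjusted p of 0.0575 to 0.111. SDHD and SUCLG2 differed by -0.38 and -0.36, and SDHA, another subunit of the same complex as SDHD, by 0.25. Those calls were lost in 6, 8 and 9 of 10 such fits. Of 12 genes of pyruvate entry, MPC1, part of the pyruvate carrier, differed by -0.40 and DLD, the dehydrogenase subunit shared with the cycle's own complex, by -0.40. As the mean of all probe sets of the gene, MPC1 differed by -0.22, SDHD by -0.22, SUCLG2 by -0.21 and SDHA by 0.25, and none of these passed. The calls of CS and DLD held in that setting. The MPC1 call was lost without either 50 h array and the DLD call without either 20 h array. Adding the ACTB ratio to the fit ended the calls of CS, SDHD, SUCLG2, SDHA, MPC1 and DLD. DLD also fell with D3 at 50 h by 0.40, a call kept in 1 of 10 fits (without p53i untreated replicate 2). As the mean of all DLD probe sets that 50 h effect was -0.03.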
